A study of Schizosaccharomyces pombe with 12 samples.

Results

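The interaction of heat with hydrogen peroxide (H2O2) was measured in fission yeast (Schizosaccharomyces pombe) on 12 microarrays. For each probe set it is the change after H2O2 in heated cells minus the change after H2O2 in unheated cells, on the log2 scale and averaged over 3 strains. It is 0 where the 2 stresses add up on that scale, which means that their folds multiply. All 12 arrays of the series entered, as 4 conditions in each of 3 strains, and values are given for the 2917 of 10928 probe sets that had exactly 1 S. pombe gene (2899 genes). Cells in log phase at 32 °C in YES medium were heated (40 °C, 1 h) and then exposed to H2O2 (25 mM, 1 h), or were only heated, only exposed, or left unstressed. The strains were slm9D, in which slm9 was replaced by ura4, hip1D, in which hip1 was replaced by ura4, and the wild type (WT). All of them were h-, leu1-32 and ura4-D18, so only WT lacked a working ura4 gene. Each strain in each condition has 1 array, and the labels do not say that the samples were separate cultures. P-values therefore measure only the spread between these arrays, which may be technical. Cells with heat alone were labelled as taken after the 40 °C step, and no array holds cells that were heated and then kept for the next hour without H2O2. The effect of H2O2 in heated cells and the effect of the time after heating cannot be told apart.

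As background, slm9 and hip1 encode 2 parts of the HIRA histone chaperone, which places histones on DNA outside replication. In fission yeast, heat and peroxide both activate the MAP kinase Sty1, which with the transcription factor Atf1 induces a common set of stress genes, while genes for growth and ribosome production are repressed. Peroxide is also sensed by the transcription factor Pap1 and by peroxiredoxins, and a mild first stress is known to change how cells meet a stronger second one.

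In the values below, 3 readings of a condition stand in the order slm9D, hip1D and WT, and every level or difference is in log2 units. The labelled strains carried the marks of their genotype. Signal for slm9 averaged 5.14 ± 0.22 in slm9D, 9.74 ± 0.04 in hip1D and 9.59 ± 0.31 in WT (SD, n = 4 arrays each). Signal for hip1 averaged 8.39 ± 0.07 in hip1D, 9.63 ± 0.16 in slm9D and 9.51 ± 0.22 in WT, a smaller gap than that of slm9, and the place of its probes relative to the deletion is not known here. Signal for ura4 averaged 11.46 ± 0.25 in slm9D, 11.64 ± 0.20 in hip1D and 4.69 ± 0.41 in WT. Array medians ran from 9.36 to 9.57. The lowest belonged to the WT array after H2O2, which also had the highest background, and the mean interactions of several genes and lists are also given without it. Interactions of the control probe sets for ribosomal RNA ran from -0.92 for a 25S to 0.98 for the middle 18S probe set. The 3′ minus 5′ signal of the ACT1 controls averaged 0.91 after both stresses, 0.50 after 40 °C, 0.65 after H2O2 and 0.43 in unstressed cells, an interaction of 0.18. The part of rRNA carry-over or RNA quality in the results below was not tested.

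The signal of 430 of the 2917 probe sets (14.7%) departed from additivity (limma, adjusted p under 0.05, strain as a block). The interaction was above 0 in 261 (8.95%) and below 0 in 169 (5.79%), and it was at least 2-fold in 36 of the first and 25 of the second. Over all probe sets the median interaction was 0.03, the median of its absolute size 0.25 and the median SE 0.16. The strain block favours probe sets in which the strains are alike, and 428 of the 430 had 1 sign in all 3 strains. The exceptions were rap1 and ssl1, in which WT went the other way (named after their values were seen). On the linear intensity scale 429 kept their sign, and mug108 did not. The samples are bulk cultures, so a change in all cells and a larger one in some of them cannot be told apart. These calls rest on counting slm9D and hip1D as separate samples. With both averaged into 1 sample, limma called 0 probe sets, with 444 at an unadjusted p under 0.05. Without slm9D 1 was called, without hip1D 2, and without WT 1616.

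**Figure D1:**
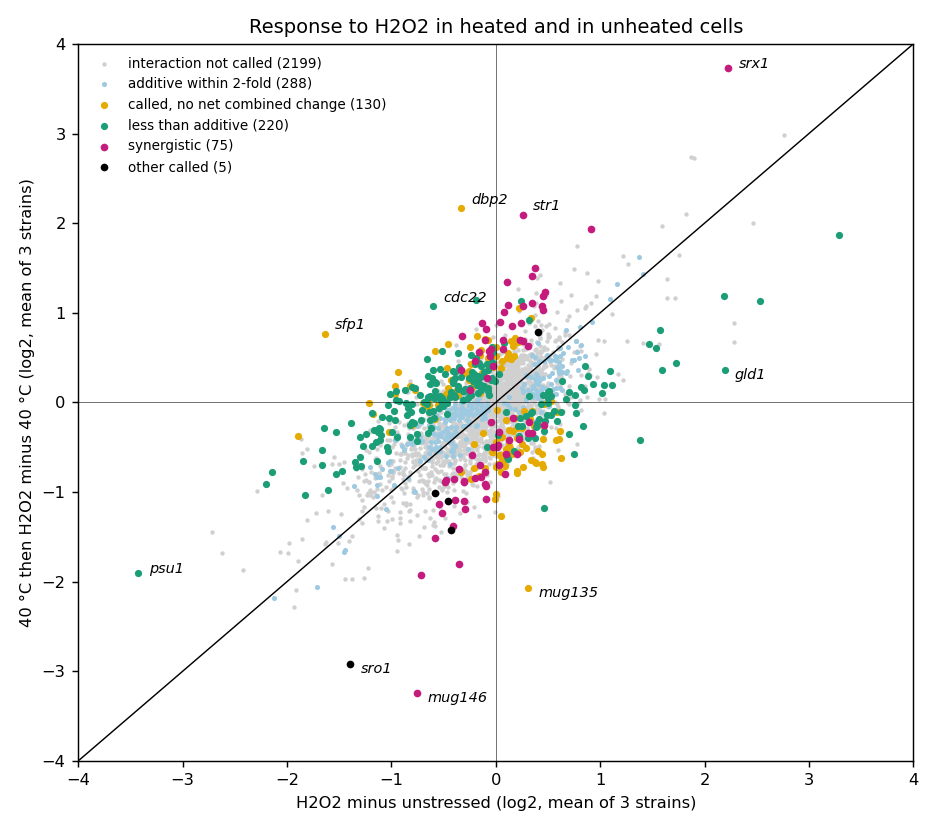
Change after H2O2 in heated cells (vertical axis, log2, mean of 3 strains) against the change after H2O2 in unheated cells (horizontal axis, same units), 1 point per probe set and coloured by class. Points on the diagonal have an interaction of 0, and srx1 and str1 lie above it while mug135 and mug146 lie below it by over 2 units.

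The called interactions were sorted by the direction of the change after both stresses relative to unstressed cells. The classes were less than additive, in which the combined change had the sign of the summed single changes and was smaller, synergistic, in which it went with the interaction and lay beyond both single changes, and no net change, in which it was not called. There were 220 less-than-additive probe sets (7.54% of all), 75 synergistic ones (2.57%) and 130 with no net change. The remaining called ones were 4 in which the combined change opposed the sum (sro1, mal2, swc3 and not2) and 1 other (rsm1). A further 288 (9.87%) were additive within 2-fold, with both single changes called in 1 direction and the 95% interval of the interaction inside ±1, of which 170 had an interval inside 1.5-fold. Each single stress was called in many more probe sets than the interaction was, but its changes were measured more precisely. The median SE was 0.11 for each single stress and 0.16 for the interaction. The median absolute size was 0.29 after 40 °C, 0.28 after H2O2 and 0.25 for the interaction. After 40 °C 662 were higher (22.7%) and 750 lower (25.7%), after H2O2 460 were higher (15.8%) and 852 lower (29.2%), and after both 694 were higher (23.8%) and 976 lower (33.5%). Single changes and the interaction share the unstressed arrays, with opposite sign, so genes picked for large single changes lean toward less than additive by construction.

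Among called interactions the largest group was of genes that were lower after both stresses, but by less than the single changes add up to. Of these 157 less-than-additive falls, 121 were called for each single stress as well. Their median change was -0.60 after both stresses, -0.68 after 40 °C and -0.59 after H2O2, against a median sum of -1.23. The combined fall lay beyond both single falls in 25 of them and within the larger one in 132. Among the 343 probe sets lowered by both single stresses, the interaction was called above 0 in 130 and below 0 in 3.

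The gene psu1, which encodes a SUN-family protein needed for cell wall synthesis, had nearly the same interaction in each strain. Its signal was 8.44, 8.27 and 8.69 after 40 °C then H2O2 and 10.39, 10.07 and 10.64 after 40 °C. It was 8.16, 8.27 and 8.69 after H2O2 and 11.65, 11.60 and 12.15 in unstressed cells. The signal after both stresses overlapped that after H2O2 alone, and both lay below heated and unstressed cells in every strain. Its interaction was 1.52 ± 0.13 (SE; limma, adjusted p = 0.000694) and lay between 1.51 and 1.53 in the 3 strains. Cyclin gene cig2, which acts at the G1/S transition, had the same shape, with 7.72, 7.67 and 7.42 after both stresses, 8.38, 8.36 and 8.78 after 40 °C, 7.51, 7.56 and 7.46 after H2O2 and 9.43, 9.51 and 10.21 in unstressed cells. Readings after both stresses and after H2O2 alone lay close together and under all others, giving an interaction of 1.29 ± 0.27 (adjusted p = 0.0168). The RNA-binding protein gene nrd1 (1.36 ± 0.19) and laf1 (1.36 ± 0.29) also changed more after H2O2 alone (-1.65 and -2.15) than after 40 °C alone (-1.18 and -1.37).

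In a second shape, signal was lowest after heat alone and was higher when H2O2 followed. The gene cdc22 encodes the large subunit of ribonucleotide reductase, which makes the building blocks of DNA. Its signal was 9.02, 9.06 and 9.63 after both stresses, 7.83, 7.80 and 8.85 after 40 °C, 10.13, 10.19 and 10.48 after H2O2, and 10.84, 10.76 and 11.01 in unstressed cells. In each strain heat alone gave the lowest reading and unstressed cells the highest. The change was -1.63 after both stresses, -2.71 after 40 °C and -0.60 after H2O2, and the interaction was 1.68 ± 0.22 (adjusted p = 0.00324). The gene aes1 behaved likewise, with changes of -0.61 after both stresses and -1.75 after 40 °C and an interaction of 1.33 ± 0.15 (adjusted p = 0.00185), while its change after H2O2 alone, -0.19, was not called (adjusted p = 0.175).

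The largest interaction above 0 belonged to dbp2, which encodes a DEAD-box RNA helicase. Its signal was 10.94, 10.97 and 11.22 after both stresses and 9.03, 9.12 and 8.48 after 40 °C. It was 10.85, 10.92 and 10.99 after H2O2 and 11.25, 11.20 and 11.31 in unstressed cells. Only the 3 heated arrays were low, and they did not overlap any other. The change was -0.21 after both stresses (adjusted p = 0.27), -2.38 after 40 °C (adjusted p = 6.98e-06) and -0.34 after H2O2 (adjusted p = 0.108), and the interaction was 2.50 ± 0.22 (adjusted p = 0.000694). Next came sfp1, whose budding yeast namesake is a transcription factor of ribosome production genes. Its signal was 9.08, 9.02 and 9.26 after both stresses and 8.19, 8.11 and 8.77 after 40 °C. It was 7.90, 8.07 and 7.06 after H2O2 and 9.09, 9.04 and 9.81 in unstressed cells. Each single stress lowered it in all 3 strains, while after both it overlapped unstressed cells (-0.19, adjusted p = 0.604). Its interaction was 2.40 ± 0.42 (adjusted p = 0.0093), and 1.92 without the WT array after H2O2, the lowest of its readings. The chromodomain protein gene chp1, of the heterochromatin silencing machinery, had an interaction of 1.52 ± 0.43 (adjusted p = 0.0439). Its WT reading after H2O2 alone, 4.72, was the lowest of the gene, and without that array the interaction was 1.03 and still called.

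In 63 genes signal rose after both stresses by less than the single changes add up to, and 52 of them were called for each single stress as well. They had a median change of 0.76 after both stresses, 0.73 after 40 °C and 0.53 after H2O2, against a median sum of 1.38. The combined rise lay beyond both single rises in 18 and within the larger one in 45. Among the 197 probe sets raised by both single stresses, the interaction was called below 0 in 60 and above 0 in 0.

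The gene gld1, for a glycerol dehydrogenase, rose strongly after either stress. Its signal was 11.30, 11.32 and 10.45 after both stresses and 11.04, 11.13 and 9.83 after 40 °C. It was 10.71, 10.66 and 8.91 after H2O2 and 8.27, 8.47 and 6.96 in unstressed cells. In each strain unstressed cells were lowest and cells after both stresses highest, with WT below both mutants in every condition. Its change was 3.12 after both stresses, 2.77 after 40 °C and 2.19 after H2O2, and the interaction was -1.83 ± 0.23 (adjusted p = 0.00248). The gene mmf2 read 9.20, 9.28 and 9.13 after both stresses, 10.52, 10.62 and 9.99 after 40 °C, 9.09, 9.04 and 8.45 after H2O2 and 8.63, 8.71 and 7.86 in unstressed cells. It was highest after heat alone in all 3 strains, and its interaction was -1.64 ± 0.19 (adjusted p = 0.00201). Others of this kind were mug14 (-1.32 ± 0.21), mug108 (-1.43 ± 0.41, and above 0 on the linear scale), the cyclin-family gene psl1 (-1.40 ± 0.40) and the p21-activated kinase gene shk2 (-1.28 ± 0.34). The last was no longer called without the WT array after H2O2 (-1.16, adjusted p = 0.0556, limma). For fzr3, a meiotic activator of the anaphase-promoting complex (-1.80 ± 0.39, adjusted p = 0.0187), no WT array was above background in any condition, so its WT value of -0.82 is between signals at background.

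Synergy, in the sense used here, was less common. In the 35 synergistic rises the median change was 0.55 after both stresses, against -0.20 after 40 °C and 0.11 after H2O2, and neither single change was called in 16 of them. In the 40 synergistic falls these medians were -0.67, 0.13 and -0.12, and neither single change was called in 15. By the definition of the class, the change after H2O2 in heated cells is upward in the rises and downward in the falls. That change was itself called in 34 of the 35 rises and 38 of the 40 falls.

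An iron transporter gene led the synergistic rises. The gene str1 encodes a carrier of siderophore-bound iron. Its signal was 10.50, 10.06 and 10.09 after both stresses and 8.32, 8.23 and 7.81 after 40 °C. It was 9.09, 9.20 and 9.04 after H2O2 and 8.82, 8.77 and 8.96 in unstressed cells. All 3 readings after both stresses lay above all others. The change was 1.37 after both stresses (adjusted p = 5.58e-05), -0.73 after 40 °C (adjusted p = 0.00284) and 0.26 after H2O2 (adjusted p = 0.17), and the interaction was 1.84 ± 0.20 (adjusted p = 0.00185). The gene php4, whose product represses iron-using genes when iron is scarce, read 9.92, 9.77 and 9.56 after both stresses, 8.41, 8.41 and 8.18 after 40 °C, 9.26, 9.31 and 9.36 after H2O2 and 8.81, 8.86 and 9.21 in unstressed cells. It was highest after both stresses and lowest after heat in all 3 strains, with an interaction of 1.07 ± 0.20 (adjusted p = 0.0107). The sterol acyltransferase gene are1 read 9.43, 9.07 and 9.70 after both stresses, 7.82, 7.65 and 8.71 after 40 °C, 8.42, 8.45 and 8.58 after H2O2 and 8.21, 8.10 and 8.80 in unstressed cells. It changed by 1.03 after both stresses, while neither -0.31 after 40 °C nor 0.11 after H2O2 was called, and its interaction was 1.23 ± 0.23 (adjusted p = 0.0109).

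Sulfiredoxin, encoded by srx1, restores peroxiredoxins inactivated by peroxide. Its signal was 13.13, 13.10 and 12.99 after both stresses and 9.47, 9.53 and 9.02 after 40 °C. It was 12.44, 12.57 and 10.71 after H2O2 and 9.69, 9.96 and 9.39 in unstressed cells. Cells after both stresses were alike in the 3 strains, whereas after H2O2 alone WT lay well below both mutants. The change was 3.39 after both stresses, -0.34 after 40 °C (adjusted p = 0.35) and 2.23 after H2O2, and the interaction was 1.5 ± 0.41 (adjusted p = 0.0392). It was 0.91 in slm9D, 0.96 in hip1D and 2.65 in WT, and 1.02 over all strains without the WT array after H2O2 (adjusted p = 0.00324). With no intensity trend in the fit, srx1 and chp1 were no longer called (both at adjusted p = 0.0547).

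The 3 largest synergistic falls were of genes that heat alone raised in the mean of the strains. The gene mug146, named for its rise in meiosis, read 5.91, 6.38 and 5.19 after both stresses and 9.20, 9.68 and 8.32 after 40 °C. It read 6.25, 6.23 and 6.22 after H2O2 and 7.31, 7.29 and 6.37 in unstressed cells. The 3 heated arrays were highest, and H2O2 lowered the signal of heated cells by far more than that of unheated ones (-3.24 and -0.76). Its interaction was -2.48 ± 0.33 (adjusted p = 0.00324). The vacuolar protein sorting gene vps3 read 7.55, 7.62 and 7.56 after both stresses, 9.49, 9.60 and 9.06 after 40 °C, 8.35, 8.41 and 8.40 after H2O2 and 9.0, 8.99 and 8.22 in unstressed cells, with an interaction of -1.46 ± 0.23 (adjusted p = 0.00673). It was lowest after both stresses in every strain. The gene urg2, for a uracil phosphoribosyltransferase, changed by -1.39 after both stresses, 0.53 after 40 °C and -0.72 after H2O2, with an interaction of -1.21 ± 0.27 (adjusted p = 0.0211). It read 11.71, 11.69 and 8.89 after 40 °C and 10.78, 10.93 and 8.99 in unstressed cells, so heat did not raise it in WT.

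In several other genes a rise after heat was gone when H2O2 followed. The gene mug135 read 9.85, 10.06 and 8.17 after both stresses and 11.89, 12.14 and 10.28 after 40 °C. It read 10.69, 10.55 and 8.55 after H2O2 and 10.31, 10.42 and 8.15 in unstressed cells. Heat alone gave the highest reading in each strain, and WT lay below both mutants throughout. The change was -0.27 after both stresses (adjusted p = 0.0848), 1.81 after 40 °C and 0.31 after H2O2 (adjusted p = 0.0674), and the interaction was -2.38 ± 0.17 (adjusted p = 0.000459). The condensin subunit gene cut3 changed by 0.04 after both stresses, 1.32 after 40 °C and 0.05 after H2O2, of which only the change after heat was called, with an interaction of -1.33 ± 0.17 (adjusted p = 0.00248). The orphan stress gene sro1 read 9.69, 9.35 and 9.71 after both stresses, 12.48, 12.23 and 12.82 after 40 °C, 9.40, 9.16 and 10.05 after H2O2 and 10.59, 10.54 and 11.67 in unstressed cells. Heat raised it and H2O2 lowered it, and after both it lay at the level of H2O2 alone, with an interaction of -1.53 ± 0.23 (adjusted p = 0.00501). The kinetochore gene mal2 (-1.0 ± 0.15) and the SWR1 complex gene swc3 (-0.64 ± 0.18) had the same order of mean changes. The interaction of swc3 was -1.05 in slm9D and -0.82 in hip1D but only -0.06 in WT. In the CCR4-NOT gene not2 the order was turned, with a fall after heat, a rise after H2O2 and an interaction of 0.38 ± 0.10.

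**Figure D2:**
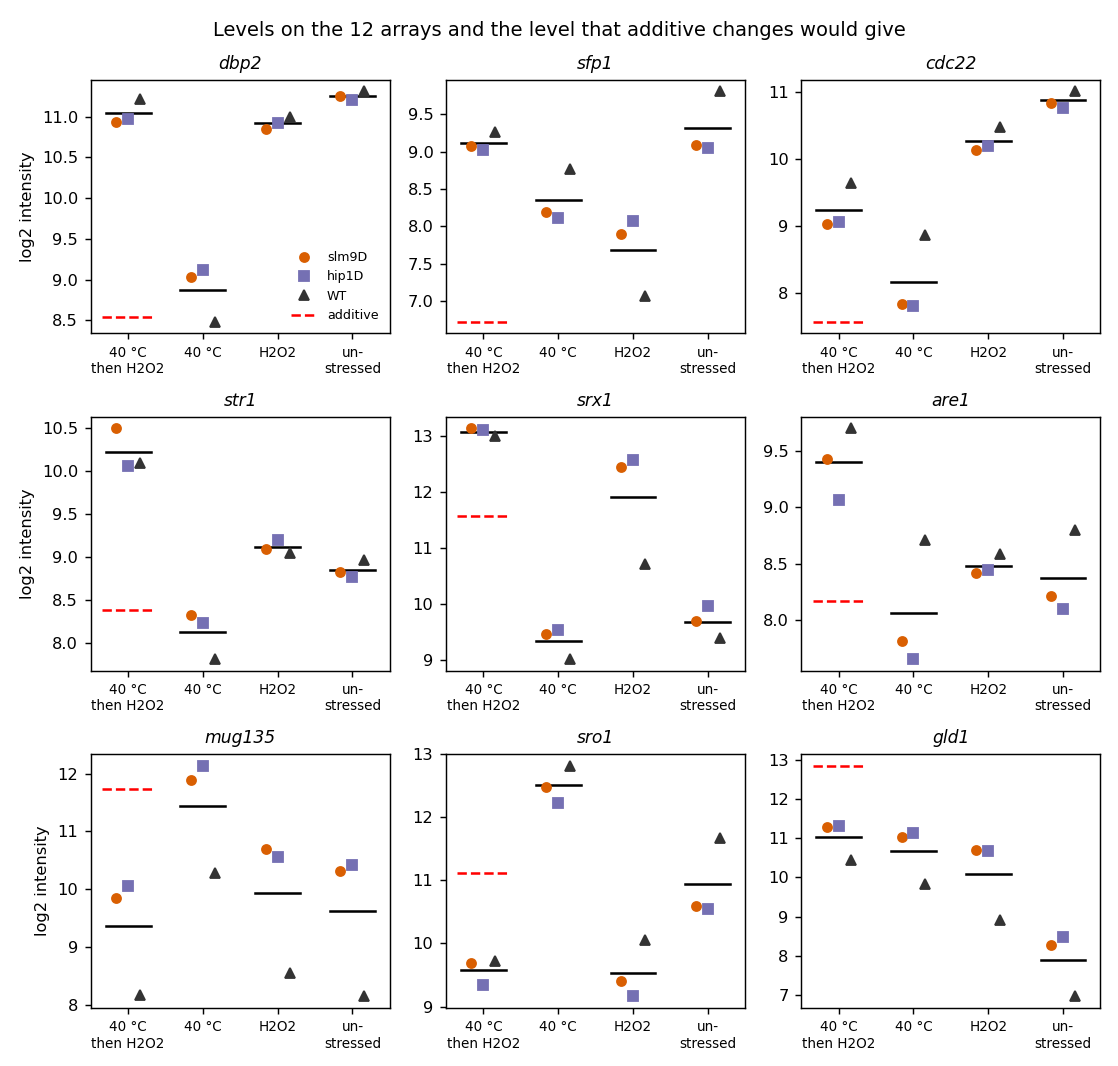
Log2 intensity of 9 genes on the 12 arrays by condition. Symbols are strains, black bars are means of 3 arrays, and the red dashed line marks the level after both stresses that additive single changes would give. The readings after both stresses lie above that line for dbp2, sfp1, cdc22, str1, srx1 and are1, and below it for mug135, sro1 and gld1.

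**Figure D3:**
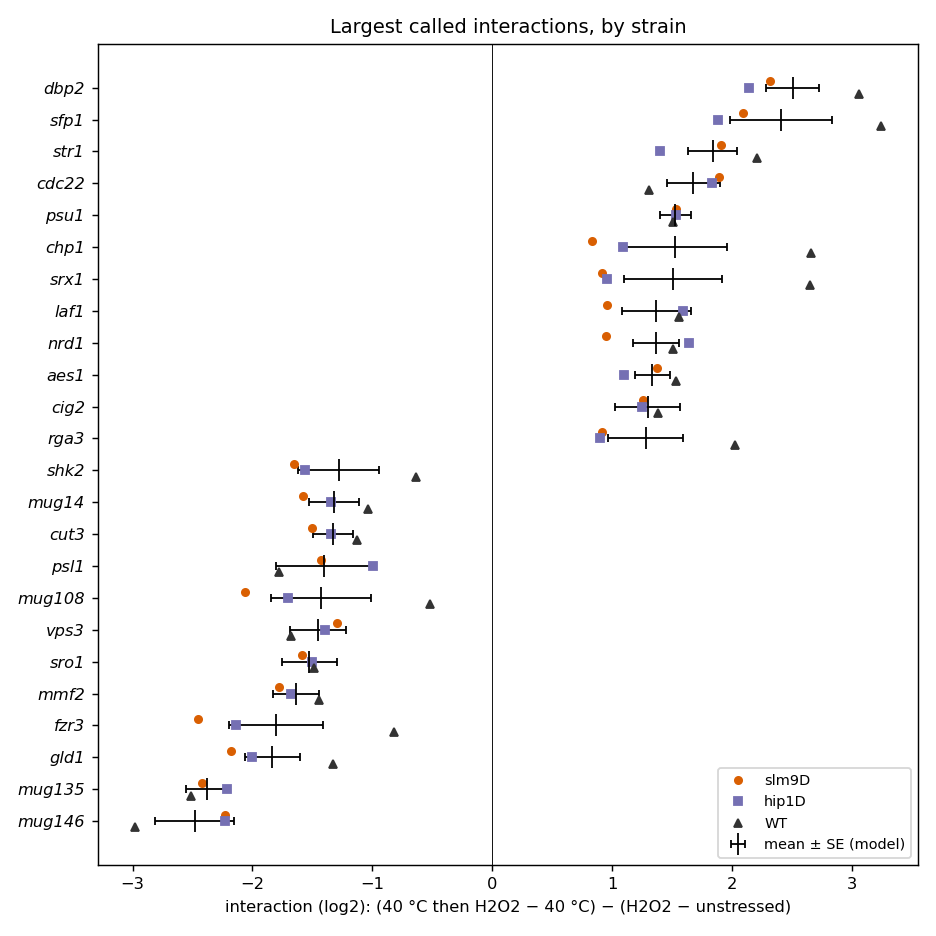
Interaction (horizontal axis, log2) of the 12 called genes with the largest values above 0 and the 12 with the largest below 0, with the mean and SE of the model and the value of each strain. Genes were chosen to have 1 sign in all 3 strains. Those in which WT lay furthest from 0 include dbp2 (3.06), sfp1 (3.24), chp1 (2.66), srx1 (2.65) and mug146 (-2.98). Those in which WT lay nearest to 0 include cdc22 (1.31) and gld1 (-1.33).

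The additive genes described here had the largest combined changes of their class in each direction. The replication licensing gene cdc18 read 6.14, 6.02 and 5.48 after both stresses, 8.03, 8.0 and 8.18 after 40 °C, 6.78, 6.82 and 7.27 after H2O2 and 9.02, 9.03 and 9.19 in unstressed cells. The 4 conditions did not overlap, and the change of -3.20 after both stresses was close to the sum of -1.01 after 40 °C and -2.12 after H2O2, with an interaction of -0.06 (95% interval -0.68 to 0.56). The copper transporter gene ctr4 changed by -2.37, -0.31 and -1.72 in the same order, with an interaction of -0.35 (-0.69 to -0.01). The glutamine synthetase gene gln1 changed by -2.24, -1.69 and -0.41, with an interaction of -0.14 (-0.46 to 0.18). Among rises, fbp1, for the gluconeogenic enzyme fructose-1,6-bisphosphatase, read 11.06, 11.03 and 10.34 after both stresses, 9.73, 9.87 and 8.87 after 40 °C, 9.33, 9.36 and 7.42 after H2O2 and 7.69, 8.14 and 6.82 in unstressed cells. It rose by 3.26 after both stresses, by 1.95 after 40 °C and by 1.16 after H2O2, with an interaction of 0.16 (-0.56 to 0.87). The glutathione transferase gene gst3 rose by 2.40, 0.77 and 1.38, with an interaction of 0.25 (-0.34 to 0.84), and the zinc finger factor gene rsv2 by 2.23, 0.79 and 1.41, with 0.02 (-0.66 to 0.70). The DNA repair gene rad55 and the membrane anchor synthesis gene gpi12 rose by 1.72 and 1.86 after both stresses, with interactions of -0.28 and -0.05, and jmj1 by 2.05, with 0.06.

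An average near 0 can hide strains that differ. The interaction of cdc18 was 0.36 in slm9D, 0.23 in hip1D and -0.77 in WT, that of rsv2 -0.41, -0.64 and 1.11, that of fbp1 -0.32, -0.07 and 0.86, and that of the MBF activator gene rep2 0.12, 0.30 and -1.03. The alpha-tubulin gene nda2 had 0.35, 0.26 and -0.63, and the nucleotide-sugar transporter gene hut1 0.01, 0.00 and -0.66. In each of these 6 the difference between mutants and WT was called, whereas for gst3, with 0.28, 0.18 and 0.29, it was not (adjusted p = 0.71).

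Genes of ribosome biogenesis, which make and assemble ribosomes, were mostly lowered by either stress. Of 53 probe sets on that list, the interaction was called above 0 in 24 and below 0 in 0, beside 8.95% and 5.79% of all probe sets. The median interaction was 0.33, against 0.03 over all. After both stresses 45 of the 53 had fallen, after 40 °C 43 and after H2O2 34. Of all probe sets 33.5%, 25.7% and 29.2% were lower in the same order. Calls above 0 were common among lowered genes in general. Of all 343 probe sets lowered by both single stresses, 130 were called above 0 and 3 below 0. The single changes and the interaction share the unstressed arrays. All 24 called members of the list had the same sign in the 3 strains. Of these, 22 were less than additive, and the others were dbp2 and the large-subunit assembly GTPase gene nog1. Without the WT array after H2O2 26 of the list were above 0 and 0 below 0, beside 332 and 257 of all 2917 probe sets. Under renewed quantile normalization these were 22 and 2, beside 302 and 244 of all. With no strain block they were 4 and 0, beside 24 and 14 of all. With the mutants averaged 0 were called, in the list and over all.

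After dbp2, the member with the smallest p was rpa49, for a subunit of RNA polymerase I. It read 9.37, 9.34 and 9.75 after both stresses, 9.44, 9.29 and 9.82 after 40 °C, 9.20, 9.28 and 9.72 after H2O2 and 10.24, 10.34 and 10.74 in unstressed cells. All stressed conditions overlapped and lay below unstressed cells of the same strain, and the interaction was 1.00 ± 0.11 (adjusted p = 0.00185). The helicase gene dbp3 read 7.95, 7.87 and 8.65 after both stresses, 8.38, 8.07 and 9.03 after 40 °C, 8.40, 8.58 and 9.54 after H2O2 and 10.18, 9.93 and 11.00 in unstressed cells, with an interaction of 1.20 ± 0.16 (adjusted p = 0.00346). Here both stresses gave the lowest reading in each strain. The gene nog1 read 10.31, 10.41 and 10.60 after both stresses, 9.79, 9.66 and 10.16 after 40 °C, 9.99, 10.09 and 10.10 after H2O2 and 10.48, 10.53 and 10.93 in unstressed cells, with an interaction of 1.16 ± 0.14 (adjusted p = 0.00201). In nog1 the readings after both stresses were the nearest to those of unstressed cells in every strain. Of 121 probe sets for cytosolic ribosomal proteins, 1 was called above 0 and 0 below 0, with a median of 0.02. Of all probe sets 8.95% were called above 0 and 5.79% below 0, with a median of 0.03.

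**Figure D4:**
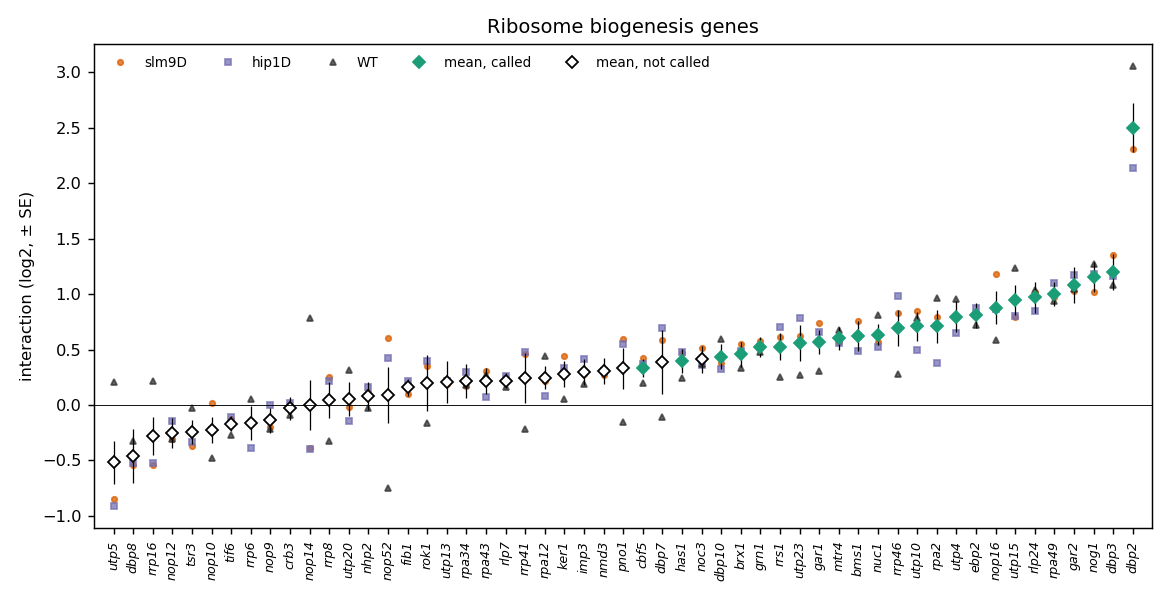
Interaction (vertical axis, log2) of the 53 ribosome biogenesis probe sets, ordered by their mean, with SE bars of the model and small symbols for the strains. The 24 called means (filled diamonds) all lie above 0, with dbp2 at 2.50 at the right end.

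Other growth lists also had more calls above 0 than below 0, as had all probe sets (8.95% above 0, 5.79% below 0, median 0.03). Of 20 translation factor probe sets 6 were called above 0 and 1 below 0 (median 0.14). Among them were the initiation factor genes tif213 (0.55 ± 0.07), tif471 (0.46 ± 0.08), tif301 (0.45 ± 0.08) and tif11 (0.41 ± 0.07), all less than additive. Of 47 amino acid synthesis probe sets 11 were called above 0 and 2 below 0 (median 0.27). The arginine synthesis gene arg4 read 10.69, 10.43 and 11.04 after both stresses, 10.51, 10.22 and 10.95 after 40 °C, 10.69, 10.70 and 11.21 after H2O2 and 11.41, 11.33 and 12.19 in unstressed cells. The stressed conditions overlapped and unstressed cells were highest in each strain (0.93 ± 0.13, adjusted p = 0.00374). The lysine synthesis genes lys4 (0.78 ± 0.09) and lys3 (0.54 ± 0.08) fell after 40 °C only, by 0.58 and 0.79, and were not called after both stresses. Of 29 cell wall synthesis probe sets 6 were called above 0 and 1 below 0 (median 0.23). Beside psu1 they included the glucan synthase gene bgs4 (0.51 ± 0.10), while the glucan-modifying enzyme gene bgl2 was the 1 below 0 (-0.66 ± 0.14).

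Components of the Sty1 pathway had a median interaction of 0.48, with 5 of 23 called above 0 and 0 below 0, and 9 and 0 (median 0.37) without the WT array after H2O2. Of all 2917 probe sets 261 were called above 0 and 169 below 0, and 332 and 257 without that array. The histidine kinase gene mak1 read 10.16, 9.88 and 9.94 after both stresses, 9.99, 9.89 and 10.14 after 40 °C, 8.99, 9.15 and 8.48 after H2O2 and 10.06, 10.00 and 10.20 in unstressed cells. Only H2O2 without prior heat lowered it (-1.22, adjusted p = 0.000462), and its interaction was 1.21 ± 0.23 (adjusted p = 0.0117), or 0.98 without the WT array after H2O2. The MAP kinase kinase kinase gene wis4 fell by 1.47 after H2O2 and by 0.70 after both stresses (0.70 ± 0.18, or 0.57 without that array). The MAP kinase gene sty1 itself fell by 0.45 after 40 °C, by 0.37 after H2O2 and by 0.30 after both (0.52 ± 0.11, adjusted p = 0.015). The RNA-binding protein gene cip2 was synergistic, with 0.27 after both stresses, -0.30 after 40 °C and -0.16 after H2O2 (0.72 ± 0.13). The other called member was the kinase gene cmk2 (0.83, named after its value was seen).

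Of 28 probe sets for oxidative stress and thiol redox, 4 were called above 0 and 0 below 0, beside 8.95% and 5.79% of all probe sets. The list's median of 0.04 lay near the 0.03 of all probe sets. Without the WT array after H2O2 4 were above 0 and 3 below 0, beside 332 and 257 of all 2917 probe sets. All 4 called in the main fit were synergistic, and 3 of them serve glutathione and thioredoxin. They were srx1, the glutamate-cysteine ligase gene gcs1 (0.64 ± 0.15), the glutathione synthetase gene gsa1 (0.63 ± 0.12) and the thioredoxin reductase gene trr1 (0.42 ± 0.11). The gene gcs1 read 11.63, 11.57 and 11.63 after both stresses, 11.04, 10.91 and 11.10 after 40 °C, 11.19, 11.28 and 10.82 after H2O2 and 11.25, 11.12 and 11.06 in unstressed cells. Cells after both stresses were above all others, which overlapped. The gene gsa1 changed by 0.32 after both stresses, -0.37 after 40 °C and 0.07 after H2O2, and trr1 by 0.63, -0.06 and 0.26, with trr1 at 0.28, 0.20 and 0.79 by strain. Without an intensity trend trr1 was no longer called (adjusted p = 0.0573).

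Of 28 general stress genes 4 were called above 0 and 2 below 0 (median -0.08), beside 8.95% and 5.79% of all. The median rested on 1 array, being -0.34 with 6 above 0 and 8 below 0 without the WT array after H2O2. After both stresses 23 of the 28 were higher, after 40 °C 16 and after H2O2 12. Of all probe sets 23.8%, 22.7% and 15.8% were higher in the same order. Beside gld1, the 4-aminobutyrate transaminase gene uga1 was below 0 (-0.65 ± 0.12), and among those above 0 were trr1 and the AMP-activated kinase gene ssp2 (0.46 ± 0.11), which fell after 40 °C only. Of 28 heat shock and chaperone probe sets 6 were called above 0 and 3 below 0 (median -0.13), and without the WT array after H2O2 6 and 10. Without that array 332 of all 2917 probe sets were called above 0 and 257 below 0. The member with the smallest p was ani1, which read 10.37, 10.31 and 11.03 after both stresses, 10.25, 10.22 and 10.98 after 40 °C, 10.57, 10.64 and 11.40 after H2O2 and 11.71, 11.66 and 12.29 in unstressed cells (1.11 ± 0.09, adjusted p = 0.000459). Unstressed cells were highest in each strain. The chaperonin subunit genes cct3 (0.41 ± 0.06) and cct7 (0.48 ± 0.10) fell less than additively, and the Hsp90 partner gene cdc37 rose less than additively (-0.65 ± 0.11). Of 22 iron uptake and use probe sets 4 were called above 0 and 0 below 0 (median 0.20). The list's median was -0.05 in slm9D, 0.07 in hip1D and 0.41 in WT, and without WT it was 0.01. Without WT 6 were called above 0 and 7 below 0, near the overall share of 812 and 804 of all 2917 probe sets. The 4 called with all strains were str1, php4, lys4 and the leucine synthesis gene leu2 (0.53 ± 0.07), the last 2 also counted under amino acid synthesis.

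Of 26 G1/S probe sets, targets or parts of the MBF transcription factor, 3 were called above 0 and 1 below 0 (median 0.05), close to the 8.95% and 5.79% of all probe sets. Without the WT array after H2O2 these were 6 and 2, beside 332 and 257 of all 2917 probe sets. The 3 above 0 in the main fit were cdc22, cig2 and the MBF co-repressor gene nrm1 (0.69 ± 0.16), while the MBF subunit gene cdc10 rose after 40 °C only (-0.52 ± 0.12). Of 35 mitosis and cell separation probe sets 28 were lower after both stresses, 18 after 40 °C and 22 after H2O2. Of all probe sets 33.5%, 25.7% and 29.2% were lower in the same order. In the list 5 were additive within 2-fold, and 1 interaction was called above 0 and 0 below 0 (median 0.07). That one was slp1, an activator of the anaphase-promoting complex, which changed by -2.98 after both stresses, -2.33 after 40 °C and -1.85 after H2O2 (1.20 ± 0.33, adjusted p = 0.0398). The glucanase gene exg1 (-3.16 after both, -2.74 and -1.04), adg2 (-3.29, -2.68 and -1.55) and the anillin-like gene mid2 (-1.31, -1.59 and -0.40) had interactions that were not called. These were 0.63 ± 0.25, 0.94 ± 0.34 and 0.68 ± 0.29, with SEs above the median of 0.16 over all probe sets.

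Meiosis and sporulation genes and nuclear genes of oxidative phosphorylation had medians below 0. Of 163 meiosis and sporulation probe sets 14 were called below 0 and 4 above 0 (median -0.21). Of all probe sets 5.79% were called below 0 and 8.95% above 0 (median 0.03). After 40 °C 69 of the 163 were higher and 9 lower, after both stresses 53 and 26, and after H2O2 28 and 28. Of all probe sets 22.7% were higher and 25.7% lower after 40 °C. After both stresses these shares were 23.8% and 33.5%, and after H2O2 15.8% and 29.2%. Beside mug135 and mug146, the members called below 0 included mug14. It read 10.54, 10.86 and 10.80 after both stresses and 11.24, 11.62 and 11.07 after 40 °C. It read 8.97, 9.0 and 8.41 after H2O2 and 8.08, 8.41 and 7.64 in unstressed cells. Its 2 heated conditions lay above the other 2 in every strain. The gene mug143 rose by 2.25 after both stresses, by 1.89 after 40 °C and by 1.60 after H2O2 (-1.24 ± 0.22, adjusted p = 0.00993). Of 41 oxidative phosphorylation probe sets 5 were called below 0 and 1 above 0 (median -0.17), beside 5.79% and 8.95% of all probe sets. The assembly factor gene atp11 read 11.13, 11.28 and 10.65 after both stresses, 12.01, 12.05 and 11.28 after 40 °C, 11.56, 11.58 and 10.74 after H2O2 and 11.34, 11.44 and 10.49 in unstressed cells (-0.97 ± 0.11, adjusted p = 0.00185). Heat alone was highest in each strain. The copper chaperone gene cox17 rose by 0.84 after both stresses, by 0.70 after 40 °C and by 0.85 after H2O2 (-0.71 ± 0.10), and atp18 (-0.46 ± 0.10) and the complex III subunit gene qcr10 (-0.67 ± 0.18) were also less than additive. Without the WT array after H2O2 meiosis genes had 4 called above 0 and 25 below 0, beside 332 and 257 of all 2917 probe sets. List counts are small, and the lists overlap in part.

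**Figure D5:**
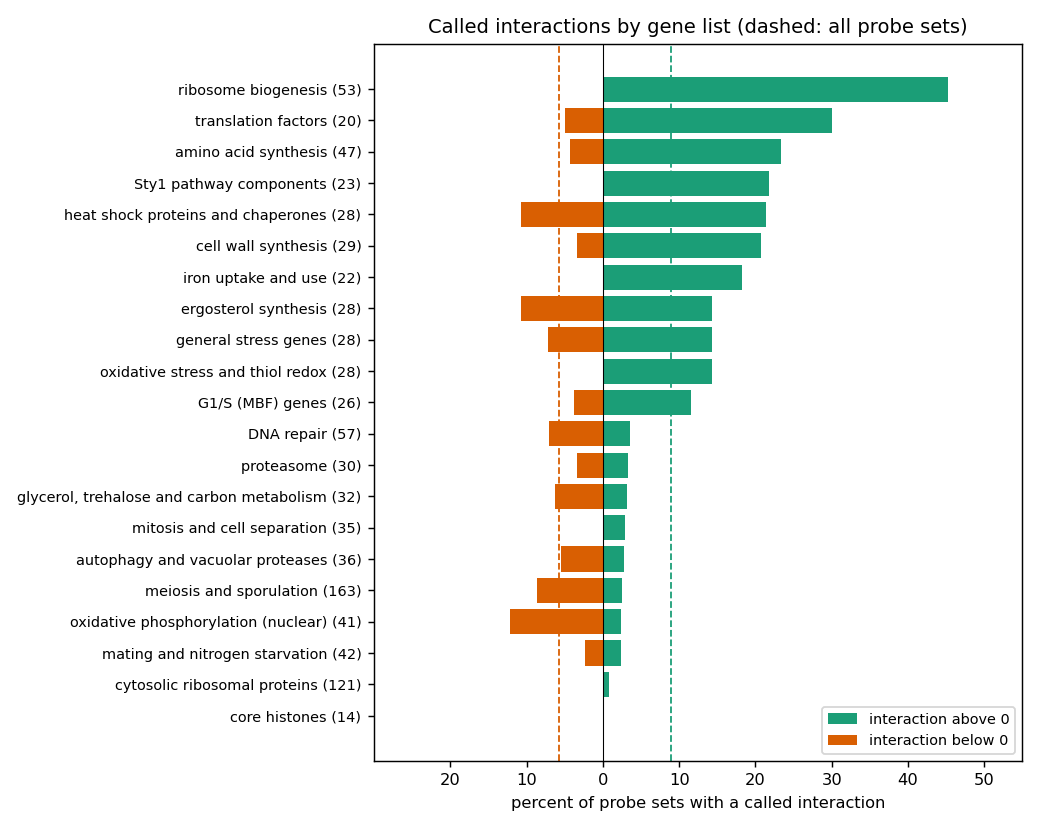
Percent of probe sets of each gene list with a called interaction, above 0 to the right and below 0 to the left, with the number of probe sets in brackets. Dashed lines mark the shares over all probe sets, 8.95% above 0 and 5.79% below 0, and ribosome biogenesis (24 of 53) stands furthest to the right.

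The mutants were alike in their interactions and WT less so. Across 2917 probe sets the interaction in slm9D and that in hip1D had Pearson's r = 0.91 (Spearman's rank correlation 0.89), against 0.48 (0.47) for slm9D and WT and 0.44 (0.44) for hip1D and WT. They are taken across genes, so their points are not independent samples, and the strains share no array. An interaction of at least 2-fold was measured above 0 for 40 probe sets in slm9D, 36 in hip1D and 198 in WT, and below 0 for 94, 56 and 108. A test of the difference itself, mutants minus WT, called 449 above 0 (15.4%) and 733 below 0 (25.1%), among them 134 of the 430 probe sets with a called mean interaction. WT has 1 array per condition, so the error of that test is only the spread between slm9D and hip1D, and its calls take no account of how WT cultures vary. Of the genes described above, the difference was called for dbp2 (-0.83), sfp1 (-1.25), srx1 (-1.72), gld1 (-0.76) and cdc22 (0.55), and not for psu1 (0.03, adjusted p = 0.92), mug135 (0.20, adjusted p = 0.4) or are1 (0.03, adjusted p = 0.91).

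The largest differences between mutants and WT were in genes whose mean interaction was not called. This is partly built in, since differences between strains enter the error of the mean interaction. Its SE was 0.86 for rhp42, against a median of 0.16 over all probe sets. The DNA repair gene rhp42, of nucleotide excision repair, read 8.49, 8.62 and 7.26 after both stresses and 9.27, 9.22 and 7.38 after 40 °C. It read 8.57, 8.48 and 4.41 after H2O2 and 7.97, 7.95 and 7.56 in unstressed cells. The WT reading after H2O2 alone stood far below all others, and the interaction was -1.38 in slm9D, -1.13 in hip1D and 3.03 in WT. The difference of -4.28 rests on that 1 array and has no value without it. The gene meu18 read 9.37, 9.24 and 9.14 after both stresses, 9.66, 9.61 and 7.76 after 40 °C, 9.46, 9.55 and 7.69 after H2O2 and 9.83, 9.79 and 9.53 in unstressed cells. The WT readings after each single stress stood below all others, and the interaction was 0.09 in slm9D, -0.13 in hip1D and 3.22 in WT. On the other side, the replication licensing gene cdt1 read 5.33, 5.11 and 3.94 after both stresses, 6.52, 6.48 and 6.92 after 40 °C, 7.45, 7.16 and 7.92 after H2O2 and 8.63, 8.75 and 8.83 in unstressed cells. The WT reading after both stresses was the lowest and near that array's background of 3.84. The interaction was -0.01 in slm9D, 0.22 in hip1D and -2.08 in WT, a difference of 2.19.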

How the data were processed

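RNA of 12 samples was hybridised to 1-colour Affymetrix Yeast Genome 2.0 arrays, per the labels. Per the submitters' processing notes, the authors used RMA and Affymetrix Expression Console 1.1 for the deposited probe set intensities. These run from 2.88 to 20293.1 and are linear, so they were turned to log2. RMA equalises the arrays, so changes in total RNA per cell are not seen, and low signals are compressed. The series has 1 array per strain and condition, which limits precision.

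Of 10928 probe sets, 213 were controls, 5177 had no gene name, 2601 named genes outside the S. pombe table and 20 named several S. pombe genes. The 2917 others were matched to RefSeq genes, 2914 by ID and 3 by symbol. Of these, 2906 exceeded the mean background, which on each array is the 95th percentile over those outside genes. All 2917 were tested. Coordinates and sequences are not used here.

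Tests used limma 3.58.1 in R 4.3.3 with an intensity trend, with p adjusted over 2917 probe sets by Benjamini-Hochberg and calls at adjusted p under 0.05. Terms were heat, H2O2, their interaction and strain (6 residual degrees of freedom). The strain pairs the 4 arrays that share a genotype, per the labels, and so is a block in the fit. For mutants minus WT the fit had 8 means plus the slm9D-hip1D difference, leaving 3 residual degrees of freedom. The fits were also run on simulated data with independent noise on each array. Such data cannot show what counting slm9D and hip1D as separate samples does to the calls. Alternatives were a background filter, renewed quantile normalization, a shift to equal medians of the outside probe sets, no intensity trend, no strain block, the mutants averaged, and arrays or strains left out.

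The gene set, classes and gene lists were chosen with earlier results of these data known. Named genes are the 12 called interactions of largest size in each direction, up to 6 per class, 6 additive ones per direction, 4 per list with the smallest p, 6 mutant-WT differences per direction, and slm9, hip1 and ura4. Ranked genes needed 1 sign in all strains and a reading above background in each condition.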

Additional observations from a re-analysis of the deposited data

Results flagged for a closer look

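The interaction of heat and H2O2 differed between the mutants and WT in 733 probe sets in which it was lower in the mutants and 449 in which it was higher. The differences are mutants minus WT in log2 units from limma (8 means plus the slm9D-hip1D difference, leaving 3 residual degrees of freedom, adjusted p under 0.05), so their error is the spread between the mutants, and WT, with 1 array per condition, has no error of its own.

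Among the genes named, it was lower in the mutants for rhp42 (-4.28), mde7 (-3.38), meu18 (-3.24), mug8 (-2.84), alr2 (-2.59), mug9 (-2.56), srx1 (-1.72), chp1 (-1.70), rsv2 (-1.64), fzr3 (-1.48), mug108 (-1.36), sfp1 (-1.25), rga3 (-1.12), fbp1 (-1.05) and shk2 (-0.97). Smaller differences of this direction were those of swc3 (-0.87), dbp2 (-0.83), gld1 (-0.76), urg2 (-0.56), trr1 (-0.55), wis4 (-0.53), cdc37 (-0.51) and mak1 (-0.48).

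It was higher in the mutants for cdt1 (2.19), fip1 (1.76), ibp1 (1.74), mug176 (1.73), pof4 (1.59), spo12 (1.57), rep2 (1.24), cdc18 (1.06), nda2 (0.94), mug146 (0.75), hut1 (0.67), cdc22 (0.55), mal2 (0.48), qcr10 (0.42), gln1 (0.36), tif11 (0.26) and lys3 (0.26).

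The WT array after H2O2 alone enters each of these differences, and it had the lowest median and the highest background of the 12. Its readings of rhp42 and mug8, 4.41 and 4.06, lay under every mutant reading of those genes, and no difference has a value without that array. The mug8 reading was near its background of 4.03, as was that of cdt1 in WT after both stresses (3.94, background 3.84). For fzr3 no WT array was above background, and for pof4 the WT array after both stresses was not.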

How the results depend on the processing

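The number of called interactions depended on how the strains were counted. Leaving out each strain in turn gave 1 to 1616 calls, of which 0 to 812 were above 0 and 1 to 804 below 0. By class these fits gave 0 to 371 synergistic, 0 to 907 less-than-additive and 42 to 334 additive probe sets. The highest counts of calls came without WT and the lowest without slm9D. Without the strain as a replicate block, limma called 38, 24 above 0 and 14 below 0, with 10 synergistic, 14 less than additive and 136 additive. With slm9D and hip1D averaged it called 0, of which 0 in either direction, 0 synergistic and 0 less than additive, with 54 additive and 444 at an unadjusted p under 0.05 on 3 residual degrees of freedom. Without the WT array after H2O2 there were 589 calls, 257 below 0. Renewed quantile normalization gave 546 calls with 116 synergistic, and 55.3% of its calls were above 0, against 60.7% before. The shift to equal outside medians gave 425 calls, 54.8% above 0. Without an intensity trend 424 were called, and with dim probe sets left out 430. Requiring the interval within 1.5-fold left 170 additive probe sets. The counts of mutant-WT differences moved by less than 1.5 times. Signal near background limits fzr3, mug108, pof4, mug8 and cdt1.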
